A study of Homo sapiens with 6 samples.

Results

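Integrins are cell surface adhesion receptors built from 1 alpha and 1 beta chain, and each chain needs its partner to leave the endoplasmic reticulum and reach the surface. On leukocytes the beta 2 chain (ITGB2, CD18) pairs with alpha L, alpha M, alpha X or alpha D and binds ICAMs, complement fragments and fibrinogen. The beta 1 chain (ITGB1, CD29) pairs with alpha 4, alpha 5, alpha 9 or alpha V, among others, and binds fibronectin, VCAM-1 and other matrix proteins, whereas beta 7 (ITGB7) pairs with alpha 4 to bind MAdCAM-1. Monocytes use these receptors to hold on to endothelium, to cross it and to take up opsonized particles.

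The 10 genes described here encode the integrin chains typical of leukocytes (ITGB2, ITGAL, ITGAM, ITGAX, ITGB1, ITGA4, ITGA5, ITGA9, ITGAV and ITGB7). They were found by gene name among the 33981 genes of the deposited table, and each of them passed the filter on low counts that left 19182 genes for testing. THP-1 is a monocytic cell line from an acute leukemia. Lentivirus delivered a vector with EGFP and a hairpin under the U6 promoter, which was scrambled shRNA in 3 samples and NFIC shRNA in the other 3, and GFP-positive cells were sorted on day 4 for bulk mRNA sequencing. The study's methods call the control a GFP only vector, whereas its results call it scrambled, and the label name is kept below. All 6 samples come from 1 cell line and, per the study, a single hairpin (sh494), and the labels do not say whether replicates were separate cultures, so the p-values measure the spread between these samples.

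Total counts were between 20369543 and 24809720 per sample, and levels are given as CPM, the count scaled to library size. The upper limit that a count of 0 allows, 3 counts, was between 0.121 and 0.147 CPM depending on the sample and covers counting error only. NFIC itself was measured at 42.1, 41.4 and 42.2 CPM in the scrambled samples and at 19.4, 22.3 and 21.4 CPM in the NFIC knockdown (NFIC KD) samples, and 50.1% of the control level remained. Of the 8 monocyte and macrophage markers, LYZ, CD68 and CSF1R were at 572, 261 and 219 CPM with scrambled shRNA. FCGR1A, CD33 and CD14 were at 65.0, 33.9 and 7.16 CPM, while CD163 and MRC1 had at most 8 counts in any library. Myeloid progenitor markers summed to 3702 to 4326 CPM in the scrambled samples and the monocyte and macrophage list to 1070 to 1199 CPM, without scaling to gene length. Of the progenitor markers, ELANE, AZU1 and PRTN3 were at 2130, 1105 and 639 CPM, and MPO and KIT at 58.1 and 19.3 CPM. CD34 had at most 1 count in any library. The marker lists of the remaining cells were lower. T cell markers came to 1 count in all (CD3D), with no row for CD3E, CD3G and CD2, and the highest summed level per sample was 0.766 CPM for erythroid, 0.393 CPM for endothelial, 2.17 CPM for neutrophil, 4.96 CPM for B cell, 8.46 CPM for fibroblast and 15.8 CPM for megakaryocyte and platelet markers.

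In the NFIC KD samples the transcript level of 9 of the 10 leukocyte integrin genes differed from the scrambled samples, 6 upward and 3 downward, with an edgeR adjusted p below 0.05 (quasi-likelihood test). Across all genes tested 59.9% passed this threshold, 29.6% higher and 30.3% lower, so a change as such is common in these samples. A log2 fold change of at least 1 in either direction, together with this threshold, was reached by 6 of the 10, against 11.9% of all genes tested. ITGB2, ITGA4 and ITGB7 fell, and ITGA9, ITGA5, ITGAV, ITGAM, ITGAL and ITGB1 rose. The median log2 fold change was 0.41 over the 10 genes and -0.011 over all genes tested. The samples of the groups did not overlap for 9 of the 10 genes, which was also the case for 65.2% of all genes tested. In bulk samples a change in the RNA of every cell and a change in the number of cells that make it cannot be told apart.

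**Figure D1:**
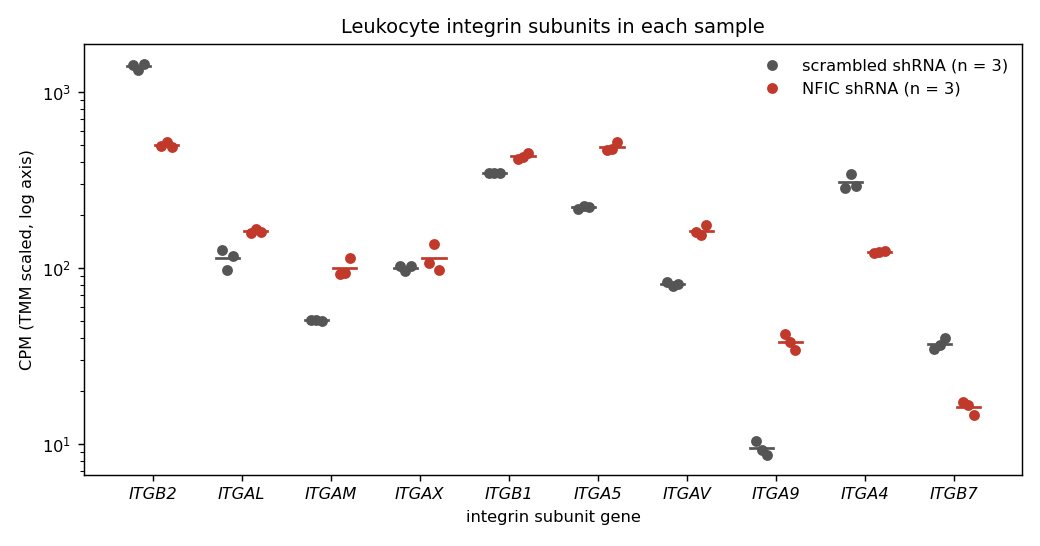
Level of each leukocyte integrin gene in CPM (vertical axis, log scale) in the 3 scrambled (grey) and 3 NFIC KD samples (red), where each point is 1 sample and each bar the group mean. ITGB2, ITGA4 and ITGB7 lie lower in all NFIC KD samples, ITGAX overlaps between the groups, and the other 6 genes lie higher.

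To show how near the hairpin comes to the integrin transcripts, the sh494 target is given below in lower case, with capitals on the 7 bases that pair with the seed (bases 2 to 8) of its guide strand.
sh494 target: gatggacaagtcaCCATTCAa
No annotated transcript of the 10 genes matched all 21 bases, and the fewest mismatches were 6 in ITGB1, 7 in ITGA9, ITGAV and ITGB7, and 8 in the other 6. The 7-base match occurs in the 3' UTR of the canonical transcript of ITGA5 and of ITGAV, 2 of the 10 genes, and in 11.01% of the 19959 canonical 3' UTRs of GENCODE release 44. Other transcripts were not searched for it.

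PU.1, a factor of myeloid genes, binds sites that contain GAGGAA. RefSeq promoter windows of 300 bases (GRCh38.p14) were matched by symbol for 6 of the 10 genes, ITGA4, ITGA5, ITGAM, ITGAV, ITGB1 and ITGB7, and were searched for these letters on both strands. The other 4 (ITGB2, ITGAL, ITGAX and ITGA9) were not matched. GAGGAA was in ITGAM, ITGAV, ITGB1 and ITGB7, and in 31.8% of 27305 genes with a window. A match of this kind describes letters and not binding. Shown, with the match in capitals, is 1 match each of ITGAM, which rose, and ITGB7, which fell. These lie at -127 and -28 from the RefSeq start of each gene, and both windows hold a further match not shown. The ITGB7 match shown is on the opposite strand, read here as TTCCTC, and lies inside the wider GENCODE span of the gene given below.
ITGAM (chr16:31259836-31259865, plus strand): caggaagctgggGAGGAAgggtgggcaggc
ITGB7 (chr12:53207262-53207291, minus strand): ggggagtgtcacTTCCTCctctgccgtctc

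ITGB2 (ENSG00000160255, chromosome 21 of GRCh38 from 44885953 to 44931989) encodes the beta chain that all CD11 integrins share. It was measured at 1434, 1328 and 1452 CPM in the scrambled samples and at 496.5, 518.2 and 484.3 CPM in the NFIC KD samples. The 3 NFIC KD samples lay close to each other and far below every scrambled sample. The level was 2.81-fold lower (log2 fold change -1.49 ± 0.052 SE, edgeR adjusted p = 6.73e-13).

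Of the 3 tested alpha partners of ITGB2, 2 rose and 1 did not pass the test. ITGAL (CD11a, chromosome 16 from 30472658 to 30523567) forms LFA-1, the receptor for ICAM-1, and was at 126.2, 97.6 and 117.6 CPM with scrambled shRNA and at 157.5, 166.2 and 160.9 CPM with NFIC shRNA. It rose in every NFIC KD sample above the highest scrambled sample, although the scrambled samples themselves were spread, with 0.51 ± 0.074 (SE) on the log2 scale (edgeR adjusted p = 3.10e-05). ITGAM (CD11b, chromosome 16 from 31259967 to 31332892) forms Mac-1, which doubles as complement receptor 3, and was at 50.6, 50.6 and 50.0 CPM with scrambled shRNA and at 92.8, 94.2 and 113.4 CPM with NFIC shRNA. Its scrambled samples were nearly equal and the NFIC KD samples were all higher, by 0.99 ± 0.071 (SE) on the log2 scale (edgeR adjusted p = 4.06e-09). ITGAX (CD11c, chromosome 16 from 31355134 to 31382999) forms complement receptor 4 and was at 102.1, 96.7 and 103.1 CPM with scrambled shRNA against 107.1, 137.3 and 97.7 CPM with NFIC shRNA. The groups overlapped because NFIC KD replicate 3 lay within the scrambled range, whereas NFIC KD replicate 2 stood above all others, and the difference on the log2 scale was 0.18 ± 0.10 (SE, edgeR adjusted p = 0.153). Without NFIC KD replicate 2 it was 0.029 (adjusted p = 0.707), without NFIC KD replicate 3 it was 0.29 (adjusted p = 0.0161), and when all genes with a count were kept the adjusted p from edgeR was 0.00764. ITGAD (CD11d) had at most 3 counts in any library and was not tested.

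ITGB1 (chromosome 10 from 32887273 to 33005792) was nearly equal in the scrambled samples, at 346.6, 347.9 and 346.6 CPM, and was at 418.0, 426.4 and 453.4 CPM in the NFIC KD samples. The rise was smaller than those of ITGA5, ITGAV and ITGA9 but larger than the spread between replicates (log2 fold change 0.32 ± 0.049 SE, edgeR adjusted p = 2.29e-05). ITGA5 (chromosome 12 from 54395261 to 54419266), which with ITGB1 makes the main fibronectin receptor, rose from 216.8, 225.6 and 221.2 CPM to 470.5, 477.6 and 523.5 CPM. That was 2.22-fold, with 1.15 ± 0.052 (SE) on the log2 scale (edgeR adjusted p = 1.97e-11). ITGAV (chromosome 2 from 186590010 to 186680901), the alpha chain of the vitronectin receptors and of integrins that release latent TGF-beta, was at 83.1, 78.7 and 81.2 CPM with scrambled shRNA. In the NFIC KD samples it was at 161.2, 154.1 and 174.7 CPM, 2.02-fold higher (log2 fold change 1.01 ± 0.056 SE, edgeR adjusted p = 1.62e-10). ITGAV also pairs with beta chains other than ITGB1. Among these ITGB5 had a log2 fold change of -0.09 (adjusted p = 0.611 from edgeR) at a level of 4.22 CPM with scrambled shRNA, ITGB3 and ITGB8 had at most 7 and 2 counts in any library, and no row was found for ITGB6.

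ITGA9 (chromosome 3 from 37452115 to 37823507) encodes an alpha chain for tenascin-C, osteopontin and VCAM-1 and had the lowest level of the 10 genes in the scrambled samples, at 10.4, 9.22 and 8.64 CPM. It was at 42.0, 38.1 and 34.3 CPM in the NFIC KD samples. This 4.04-fold rise was the largest change of the 10 genes (log2 fold change 2.01 ± 0.096 SE, edgeR adjusted p = 3.19e-11), and 98.5% of all genes tested had a smaller absolute log2 fold change. The counts behind it were 226, 227 and 185 against 866, 885 and 791. On the scale of log2(FPKM + 1), which compresses low genes, the difference was 1.40.

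ITGA4 (chromosome 2 from 181457202 to 181538940) forms VLA-4 with ITGB1 and, with ITGB7, the receptor for MAdCAM-1. It was at 284.1, 344.5 and 291.3 CPM in the scrambled samples, among which replicate 2 was the highest, and at 121.4, 123.1 and 125.2 CPM in the NFIC KD samples. The fall was 2.49-fold (log2 fold change -1.32 ± 0.065 SE, edgeR adjusted p = 7.61e-11). ITGB7 (chromosome 12 from 53191323 to 53207282) was at 34.6, 36.4 and 39.8 CPM with scrambled shRNA and at 17.4, 16.8 and 14.7 CPM with NFIC shRNA, 2.27-fold lower (log2 fold change -1.18 ± 0.084 SE, edgeR adjusted p = 2.76e-09). Of the alpha chains that bind VCAM-1, ITGA4 was thus lower and ITGA9 higher.

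**Figure D2:**
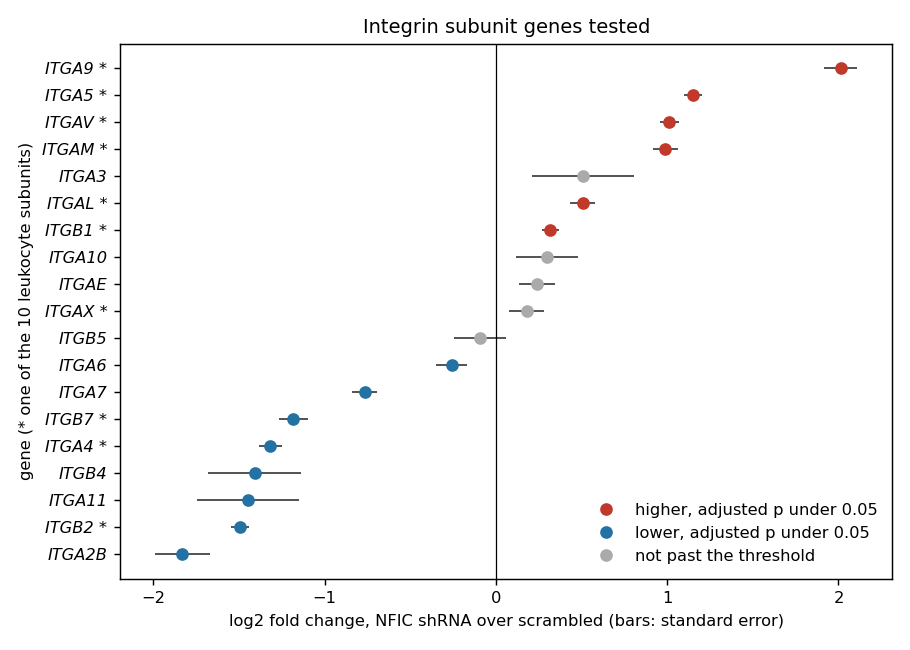
log2 fold change of NFIC shRNA over scrambled shRNA (horizontal axis) with its standard error for the 19 integrin subunit genes tested, ordered by value, with the 10 leukocyte genes marked by an asterisk. The values run from -1.83 for ITGA2B to 2.01 for ITGA9, and each of the genes that rose past the threshold is one of the 10.

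Levels of different genes were compared per length, in FPKM. The 10 genes made up between 95.98% and 96.7% of the summed FPKM of the 24 integrin subunit genes with a row in the table. In the scrambled samples ITGB2 stood at 202 ± 9.69 FPKM (SD, n = 3), followed by ITGB1 at 57.0 ± 0.223 FPKM (SD, n = 3). ITGA5 and ITGA4 came next at 29.6 ± 0.646 and 28.4 ± 3.07 FPKM (SD, n = 3), and their samples overlapped. ITGAL, ITGAX, ITGAV, ITGAM, ITGB7 and ITGA9 followed at 17.5, 14.1, 9.73, 8.76, 8.20 and 1.13 FPKM, with ITGAM and ITGB7 overlapping.

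In the NFIC KD samples this order was different. ITGB2 at 72.6 ± 2.26, ITGB1 at 71.9 ± 3.55 and ITGA5 at 66.4 ± 4.34 FPKM (SD, n = 3 each) formed a leading group in which each gene overlapped the next. ITGAL followed at 25.2 FPKM, and ITGAV, ITGAM and ITGAX overlapped in turn at 19.8, 17.6 and 16.1 FPKM. ITGA4 was at 11.5 FPKM, ITGA9 at 4.60 FPKM and ITGB7 at 3.65 FPKM. Of the summed FPKM of integrin genes, ITGB2 held between 50.1% and 52.5% in the scrambled samples and between 21.6% and 23.4% in the NFIC KD samples. ITGA5 held between 7.35% and 7.91% and then between 20.1% and 21.7%. The beta chains ITGB1, ITGB2 and ITGB7 summed to between 256 and 275 FPKM in the scrambled and between 145 and 150 FPKM in the NFIC KD samples. The 7 alpha chains summed to between 108.7 and 110.0 FPKM and then between 155 and 168 FPKM, so the sums of the alpha and beta chains moved in opposite directions.

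The level of each alpha chain was then set against its beta partner within each sample, for 8 pairs. ITGAL over ITGB2 was 0.0943, 0.0787 and 0.0868 in the scrambled and 0.340, 0.344 and 0.356 in the NFIC KD samples. ITGAM over ITGB2 was 0.0426, 0.0460 and 0.0416, and 0.226, 0.220 and 0.283. ITGAX over ITGB2, whose alpha chain did not pass the test by itself, was 0.0691, 0.0707 and 0.0690, and 0.209, 0.257 and 0.196. For each beta 2 pair the ratio was thus higher in all NFIC KD samples, by 4.01-fold, 5.56-fold and 3.15-fold. ITGB2 was between 4.85 and 5.12 times the sum of its alpha chains with scrambled shRNA and between 1.198 and 1.29 times with NFIC shRNA.

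For the beta 1 pairs the alpha chains split. ITGA5 over ITGB1 was 0.509, 0.528 and 0.520 in the scrambled and 0.917, 0.912 and 0.940 in the NFIC KD samples, near parity in the latter. How near depends on the gene lengths used. Without them ITGA5 had more counts than ITGB1 in each NFIC KD sample (9699, 11082 and 12079 against 8616, 9894 and 10461). ITGAV over ITGB1 rose 1.62-fold and ITGA9 over ITGB1 3.24-fold, both without overlap of the groups. ITGA4 over ITGB1 went the other way, with 0.463, 0.559 and 0.474 in the scrambled and 0.164, 0.163 and 0.156 in the NFIC KD samples. ITGA4 over ITGB7 was 3.43, 3.96 and 3.06, and 2.92, 3.07 and 3.56, so the groups overlapped for the pair in which both chains fell. In an exact permutation test (two-sided, n = 3 in each group) p was 0.1 for the 7 pairs without overlap, the smallest value the design allows, and 0.5 for ITGA4 over ITGB7. Adjusted over the 8 pairs these were 0.114 and 0.500, so none could pass 0.05 in this design.

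Within the sum of ITGA4, ITGA5, ITGA9 and ITGAV, the share of ITGA4 was 41.2% ± 2.39 (SD, n = 3) with scrambled shRNA and 11.3% ± 0.379 (SD, n = 3) with NFIC shRNA. The share of ITGA5 went from 43.0% ± 1.29 to 64.8% ± 0.893, that of ITGAV from 14.2% ± 1.03 to 19.4% ± 0.484, and that of ITGA9 from 1.64% ± 0.203 to 4.52% ± 0.634 (SD, n = 3 each). ITGA5 and ITGA4 were near equal in the scrambled samples, at ratios of 0.945 to 1.10, and ITGA5 was 5.59 to 6.04 times ITGA4 in the NFIC KD samples. The sum of ITGA4, ITGA5, ITGA9 and ITGAV leaves out other alpha chains. Among these, ITGA7 was at 7.86 and 4.68 FPKM and ITGA6 at 2.41 and 2.03 FPKM (scrambled and NFIC KD means). Among the beta 2 partners, ITGAM took 21.8% ± 1.56 and then 29.9% ± 3.63 of the sum, ITGAX 34.9% ± 1.31 and then 27.3% ± 3.94, and ITGAL 43.3% ± 2.79 and then 42.8% ± 0.989 (SD, n = 3 each). The exact permutation p (two-sided) was 0.1, the smallest possible, for ITGA4, ITGA5, ITGA9, ITGAV, ITGAM and ITGAX, with 0.133 after adjustment over the 8 shares, and 0.8 for ITGAL.

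**Figure D3:**
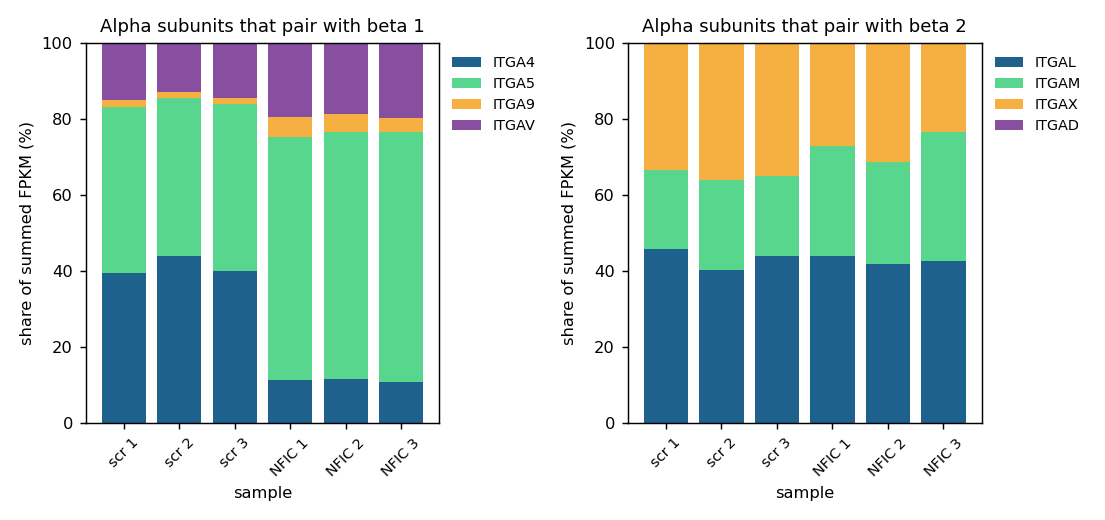
Share of each alpha chain in summed FPKM (percent, vertical axis) in each of the 6 samples. The left sum covers only ITGA4, ITGA5, ITGA9 and ITGAV of the beta 1 partners, the right sum the beta 2 partners. The ITGA4 segment shrinks from 41.2% on average in the scrambled bars to 11.3% on average in the NFIC KD bars, while the ITGAL segment averages 43.3% and 42.8%.

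The genes also share positions on the genome. ITGAM and ITGAX lie next to each other on chromosome 16, and ITGAL lies on the same chromosome arm. ITGAM rose and ITGAX did not pass the test. Of the genes within 100000 bases of this pair, TGFB1I1 had a log2 fold change of -0.45 (adjusted p = 0.0263 from edgeR). The neighbours PYCARD and ARMC5 had log2 fold changes of -0.09 and 0.18 (adjusted p = 0.210 and 0.145 from edgeR).

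Several of the 10 genes overlap a gene on the opposite strand. The library kit does not keep strand in its standard form and the counting setting is not given in the sources used here, so reads of a gene and its antisense partner may not be told apart. ITGA9-AS1 had 22.6% as many counts as ITGA9 and shares 763 exonic bases with it, and its log2 fold change was 1.93. CERKL, opposite ITGA4 with 2813 shared exonic bases, had 17.95% as many counts and a log2 fold change of -1.43. AC116348.5 and AC116348.4 opposite ITGAL had 0.57 and 0.47, AC079313.1 opposite ITGA5 had 1.04 and AC017101.1 opposite ITGAV had 1.02. Each of these 6 moved in the direction of the integrin gene it overlaps. By contrast ITGB2-AS1, with 0.696% of the counts of ITGB2, had a log2 fold change of 0.13 (adjusted p = 0.586 from edgeR). ZNF740, a zinc finger gene with more counts than ITGB7, shares 1881 exonic bases with it. Like ITGB7 it was lower, with -0.32.

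Among the other 16 integrin subunit genes, 14 had a row and 9 were tested. By edgeR 5 fell and 0 rose, so 55.6% of those tested passed the threshold, against 59.9% of all genes tested. At an unadjusted p below 0.05 from edgeR 1 (ITGAE) was higher. By DESeq2 0 were higher at an adjusted p below 0.05. The count that rose was 1 without scrambled replicate 2, without NFIC KD replicate 1 or without NFIC KD replicate 3. ITGA2B, the platelet integrin chain, went from 6.13 to 1.72 CPM (log2 fold change -1.83, standard error 0.16), and ITGA7, a laminin receptor chain, from 50.8 to 29.9 CPM (-0.76, standard error 0.073). ITGB4 and ITGA11 were under 2 CPM in both groups and had -1.41 and -1.45. ITGA6, another laminin receptor chain, had -0.26 (adjusted p = 0.0218 from edgeR), which was 0.0884 with DESeq2, 0.106 without scrambled replicate 3 and 0.108 without NFIC KD replicate 1 (edgeR). ITGAE, the alternative partner of ITGB7, had 0.24 (adjusted p = 0.0601 from edgeR).

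Integrins stay inactive until talin and a kindlin bind the beta tail, a step driven by the small GTPase RAP1. Of the 17 activation genes, 8 rose, 5 fell and 4 did not pass, with a median log2 fold change of 0.12. Thus 76.5% of this list passed, against 59.9% of all genes tested. FERMT3, the kindlin of blood cells, rose, with 135 ± 11.6 CPM in the scrambled and 234 ± 10.8 CPM in the NFIC KD samples (mean ± SD, n = 3 each, log2 fold change 0.79, edgeR adjusted p = 8.71e-09). RAP1A and RAP1B rose by 0.61 and 0.53 on the log2 scale. RASSF5 (RAPL), a RAP1 effector that binds alpha L, had -0.96 (adjusted p = 1.53e-09 from edgeR). The epithelial kindlin FERMT1 and the second talin gene TLN2, both under 6 CPM with scrambled shRNA, had -2.90 and -0.85. TLN1, the talin gene with the higher level, rose from 415 to 569 CPM (0.45).

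Of the 21 genes of the complex that links integrin tails to actin, 10 rose, 4 fell and 7 did not pass. The median was 0.12, and the share that passed was 66.7%, near the 59.9% of all genes tested. The adaptor CRK rose, with 35.2 ± 0.874 CPM in the scrambled and 97.1 ± 7.37 CPM in the NFIC KD samples (mean ± SD, n = 3 each, log2 fold change 1.46, edgeR adjusted p = 1.40e-11). The kinase PTK2B (PYK2) and the LIM protein ZYX (zyxin) had log2 fold changes of 0.74 and 0.55. PARVB (beta-parvin), the leukocyte paxillin relative LPXN (leupaxin) and TNS1 (tensin 1) fell, with -1.05, -1.20 and -0.32. The list held members that moved in both directions.

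Genes for integrin ligands moved in both directions. Of 27 listed, 24 had a row and 19 were tested, of which 3 rose, 7 fell and 9 did not pass. Their median was -0.45, and 52.6% of those tested passed, against 59.9% of all genes tested. ICAM1, the ligand of LFA-1 and Mac-1, rose, with 12.5 ± 3.48 CPM in the scrambled and 39.2 ± 2.46 CPM in the NFIC KD samples (mean ± SD, n = 3 each, log2 fold change 1.66, edgeR adjusted p = 3.49e-06). Among the other ICAM genes, ICAM2 fell from 8.54 to 3.73 CPM (-1.20) and ICAM4 from 2.69 to 0.741 CPM (-1.84). ICAM3, at 41.5 CPM with scrambled shRNA, and ICAM5 did not pass. F11R (JAM-A), another ligand of LFA-1, and TGFB1, whose latent form binds alpha V integrins, had 0.66 and 0.36. C3, the source of the complement fragment iC3b that Mac-1 binds, fell from 38.6 to 12.4 CPM (-1.64), FN1 (fibronectin) from 18.3 to 7.08 CPM (-1.37) and MFGE8, a ligand of alpha V integrins, from 15.1 to 2.10 CPM (-2.85). VCAM1 had at most 1 count in any library, and MADCAM1 was under 1 CPM in both groups.

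Of the 13 other adhesion receptors of leukocytes, 12 were tested, and 5 rose and 3 fell, with a median of 0.17. That is 66.7% of those tested, near the 59.9% of all genes tested. CD99 and PECAM1, which serve passage through endothelium, had log2 fold changes of 1.05 and 0.64, and ALCAM had 0.44. SELPLG (PSGL-1), the selectin ligand for rolling, fell, with 57.8 ± 3.03 CPM in the scrambled and 19.7 ± 3.15 CPM in the NFIC KD samples (mean ± SD, n = 3 each, log2 fold change -1.55, edgeR adjusted p = 9.39e-10). SPN (CD43) and SLC3A2 (CD98 heavy chain, which binds beta 1 tails) had -0.49 and -0.39.

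**Figure D4:**
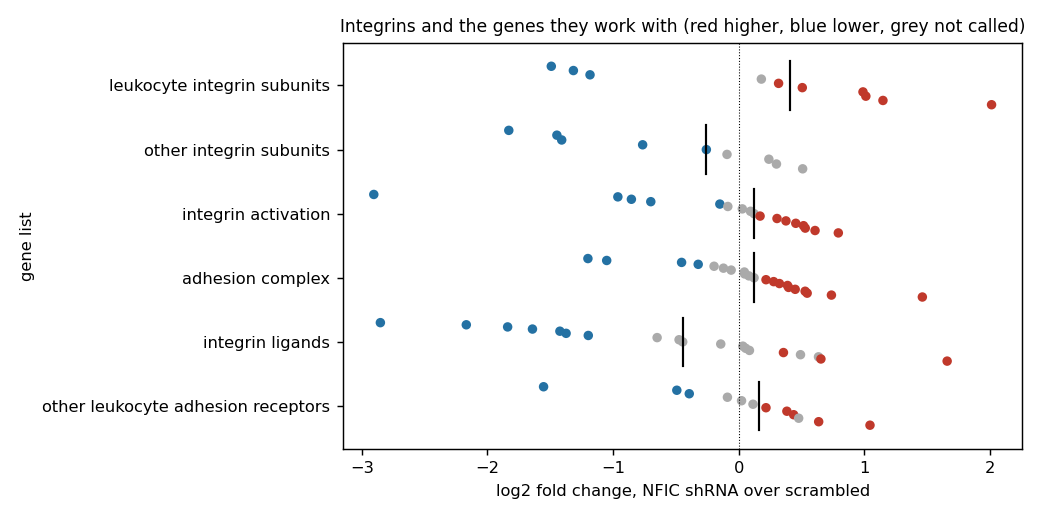
log2 fold change of NFIC shRNA over scrambled shRNA (horizontal axis) for each tested gene (1 dot) of the leukocyte integrin genes and 5 lists of related genes, coloured by whether the adjusted p was under 0.05, with a black line at the median of each list. The medians lie between -0.45 for the ligands and 0.41 for the leukocyte integrin genes.

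Markers of myeloid maturity and of other cells moved with the groups, and their part in the result was not tested. Summed fibroblast markers were at 7.50 to 8.46 CPM in the scrambled and 3.14 to 3.79 CPM in the NFIC KD samples. Of the megakaryocyte and platelet markers, PF4 and PPBP had no row, GP1BB was higher (6.46 and 14.4 CPM, log2 fold change 1.15) and GP9 lower (1.78 and 0.984 CPM, log2 fold change -0.84), with summed levels of 6.99 to 8.87 and 14.97 to 15.8 CPM. The neutrophil marker CAMP and the B cell marker CD79A were lower (-2.42 and -0.86), with summed levels of their lists of 1.13 to 2.17 and 0.560 to 0.835 CPM, and of 4.09 to 4.96 and 2.65 to 3.27 CPM. All 5 tested progenitor markers (MPO, ELANE, AZU1, PRTN3 and KIT) were lower, as were 30.3% of all genes tested. MPO was close to the threshold (-0.26, adjusted p = 0.0468 from edgeR), and its groups overlapped. The summed level of the progenitor list was 3702 to 4326 CPM in the scrambled and 2045 to 2163 CPM in the NFIC KD samples. Of the 6 tested monocyte and macrophage markers, CD14 and LYZ were higher (0.65 and 0.72) and CD68, CSF1R and CD33 lower (-1.01, -0.59 and -0.97). FCGR1A had 0.016 (adjusted p = 0.820 from edgeR). The list summed to 1070 to 1199 CPM in the scrambled and 1220 to 1376 CPM in the NFIC KD samples. LYZ, its highest gene, went from 572 to 940 CPM, whereas CD68 went from 261 to 130, CSF1R from 219 to 146 and CD33 from 33.9 to 17.4 CPM.

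To find the genes most like ITGB2 and ITGA9, log2 CPM was centred on the scrambled mean and compared over the 6 samples with 19181 other genes. SUMF2, AP002990.1 and KCNQ5 lay nearest to ITGB2, at root mean square distances of 0.0467, 0.0469 and 0.0535. P2RY13, AL031123.3 and NTNG2 lay nearest to ITGA9, at 0.0992, 0.132 and 0.139. Nearness here says nothing of a shared role.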

How the data were processed

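The authors trimmed the reads with Trim Galore, used STAR for alignment to GRCh38 and featureCounts with the Ensembl 96 annotation for counting. The deposited table gives the resulting raw count for each gene and sample. The authors also deposited a normalized signal, which is the count divided by 1 DESeq2 size factor per sample, and FPKM values made from it with the gene length and 1 constant. Columns of the authors' own comparison (fold change and p-value) were not used here.

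Counts were tested with edgeR 4.0.16 in R 4.3.3 (TMM normalization, filter on low counts, robust dispersions, quasi-likelihood test) over the 3 scrambled and 3 NFIC KD samples, with Benjamini-Hochberg adjustment over 19182 genes and a threshold of 0.05. CPM are scaled by the TMM factors, and summed levels of marker lists are scaled by the total count. The standard error is the log2 fold change divided by the square root of F. Ratios and shares used the deposited FPKM and an exact permutation test. The test was checked on simulated counts, where the share of false calls was somewhat above the threshold. Calls near the threshold may thus be less sure than their adjusted p states. By how much cannot be told, because far fewer genes were changed in the simulation than were called in these data. Positions come from GENCODE release 44 of GRCh38, matched by gene identifier. No 2 replicates were alike within sampling noise (chi-square per degree of freedom between 1.94 and 7.30).

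Named genes were NFIC, the 10 integrin genes, other integrin genes past the threshold, up to 3 genes per list and direction with the smallest adjusted p, the 3 genes nearest to ITGB2 and to ITGA9 in log2 CPM (prior count 2), overlapping genes and neighbours of ITGAM and ITGAX. Some items that this rule or the motif search covers are not reported here. Marker genes, ITGAD, ITGAE, ITGB3, ITGB5, ITGB8, TLN1, ICAM2 to ICAM5, VCAM1 and MADCAM1 fall outside this rule and were chosen after seeing the values. The genes, lists and tests were chosen with earlier results of these data known. Alternatives were DESeq2 1.42.0 and its size factors, upper-quartile and total-count scaling, no filter, at least 10 counts in every sample, a replicate block, each sample left out in turn, limma 3.58.1 on log2(FPKM + 1), and, for ratios and shares, 0.1 FPKM added or counts without length.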

Additional observations from a re-analysis of the deposited data

How the results depend on the processing

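The 9 leukocyte integrin genes past the threshold kept their direction and stayed under an adjusted p of 0.05 in each of 14 alternatives, the highest adjusted p being 0.00214. With total counts in place of TMM 1 further integrin subunit gene was higher (0 with TMM), and with 1 sample left out the count was between 0 and 1. The difference in the share of ITGAL among the beta 2 partners, -0.525 percentage points, was 0.208 with counts without gene length and between -2.05 and 0.690 with 1 sample left out, and that of ITGAD was between -0.0317 and 0.00658, so neither has a stable sign. The cause was not tested. ITGA6 lost its call in 4 alternatives, TNS1 in 1 (limma on log2(FPKM + 1)), and ITGAX gained one in 2. With the replicate block 6 integrin genes were higher and 3 lower, as without it, and over all genes 5439 rose and 5544 fell, against 5676 and 5810, and integrin activation genes that rose were 7 against 8. Same-numbered samples had correlations of their deviations between -0.0862 and 0.0563, and 1 of 6 samples correlated best with its own number, so the samples share only a number. Genes under about 0.147 CPM, such as ITGAD or VCAM1, could not be compared at this depth.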
